A study of Rattus norvegicus with 6 samples.

Results

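Microglial and immune miRNAs were examined in the rat hypothalamic arcuate nucleus (ARC) as a set of named mature miRNAs that are widely studied in neuroinflammation and neuropathic pain. The set was chosen by name, and 9 of its 10 names were listed among the 562 mature miRNAs of the tables: rno-miR-21-5p, rno-miR-142-3p, rno-miR-142-5p, rno-miR-146a-5p, rno-miR-146b-5p, rno-miR-150-5p, rno-miR-150-3p, rno-miR-155-5p and rno-miR-223-3p, written without the prefix from here on. The tenth name, miR-21-3p, was not in these tables and was not analysed here. All 9 passed the filter on low values and were tested.

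Small RNA of ARC tissue was sequenced on Day 14 after surgery in 3 sham libraries and 3 CCI-ION libraries from Sprague-Dawley rats of 8 to 10 weeks. In CCI-ION rats the left infraorbital nerve, a sensory branch of the trigeminal nerve, was tied loosely with ligatures, which is a model of trigeminal neuropathic pain, and in sham rats the nerve was exposed on one side and not tied. The labels carry no genetic change or drug in either group, the study's methods give male rats unless stated otherwise, and the study gives more rats per group than libraries for its sequencing heatmap. No source used here says how rats were assigned to libraries or whether they were pooled, so that the p-values measure the spread between libraries. The labels also name tissue and not sorted cells, so that microglia, blood cells in vessels and other cells all contribute RNA, and in such bulk tissue more cells of a type and more RNA per cell cannot be told apart.

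miRNAs are short RNAs that guide a silencing complex to mRNAs, mainly through their seed, bases 2 to 8 from the 5′ end. A hairpin precursor gives a 5p and a 3p strand, of which one usually accumulates and the other is mostly degraded. Within the immune set, miR-142 and miR-223 are known as miRNAs of blood-forming and myeloid cells, miR-150 of mature lymphocytes, and miR-155 as an inducible miRNA that promotes inflammatory signalling. The related miR-146a and miR-146b are known to dampen Toll-like receptor and NF-κB signalling through the adaptors IRAK1 and TRAF6. miR-21 is broadly expressed, is found in glia as well as in other cells, and is induced in many kinds of injury.

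The mature sequences of 7 of the 9 miRNAs were found in RefSeq (assembly GRCr8), and they are shown because the seeds separate the set into families; capitals mark the seed. miR-150-5p and miR-150-3p had no entry.
miR-21-5p: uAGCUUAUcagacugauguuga
miR-142-5p: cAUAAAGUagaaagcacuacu
miR-142-3p: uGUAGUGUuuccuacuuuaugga
miR-146a-5p: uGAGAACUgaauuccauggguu
miR-146b-5p: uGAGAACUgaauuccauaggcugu
miR-155-5p: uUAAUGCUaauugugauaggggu
miR-223-3p: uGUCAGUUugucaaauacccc

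Only miR-146a-5p and miR-146b-5p shared a seed, and none of the other 5 sequences shared its seed with any other mature rat miRNA of the RefSeq table. Counted from the 5′ end of miR-146a-5p, its first 17 bases were identical to those of miR-146b-5p, and the remaining differences were G18A and U21C plus 2 extra bases at the 3′ end of miR-146b-5p. Reads of these relatives that end before base 18 could belong to either, so their separate values are uncertain to that extent. The genes lie apart in GRCr8: miR-21-5p at chr10:71902653-71902674 on the minus strand, next to Vmp1, miR-142-5p at chr10:73055119-73055139 on the plus strand, within Tspoap1, and miR-155-5p at chr11:37261117-37261139 on the plus strand, within the non-coding host gene Mir155hg. miR-146a-5p lies at chr10:28350053-28350074 on the minus strand, miR-146b-5p at chr1:255144874-255144897 on the plus strand within C1h10orf95, and miR-223-3p at chrX:65151450-65151470 on the plus strand, with Vsig4 as its nearest protein-coding gene.

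Read depth came from the values themselves, which were whole multiples of a step fixed within each library. Summed over the listed miRNAs, it was between 8628309 and 14313839 reads per library, and shares of reads below are shares of this sum. In it, 10 miRNAs shared all their values with another, so that some reads may be counted more than once. The smallest value above 0 was worth 5 reads, and all 9 miRNAs were above 0 in all 6 libraries. Values below are normalized counts, that is, reads over the size factor of their library, and where a group has 3 values they are in the order of replicates 1, 2 and 3. Adjusted p-values were adjusted by Benjamini-Hochberg over all miRNAs tested. Over the 555 miRNAs whose mean reached 1, limma on log2(normalized count + 1) put 38 past an adjusted p of 0.05, or 6.85%, with 19 higher (3.42%) and 19 lower (3.42%) in CCI-ION rats. This split depended on the scaling, with 42 higher and 9 lower under total-count scaling, 10 higher and 84 lower under upper-quartile scaling, and 30 higher and 19 lower when library sizes were taken without miR-7a-5p, the most abundant miRNA, which took between 16.8% and 24.4% of reads in sham libraries and between 7.90% and 13.5% in CCI-ION libraries. Over all miRNAs tested the median log2 fold change was -0.01 with the deposited values and moved to 0.17, -0.26 and 0.02 under these scalings. Neuron markers such as miR-124-3p were abundant, with a summed level of 666689 to 891607 normalized counts for the 6 neuron miRNAs in sham libraries, and 533988 to 639013 in CCI-ION libraries. These 6 did not move as a whole, with 4 negative and 2 positive log2 fold changes. The most abundant in sham libraries, miR-128-3p, had means of 491235 for sham and 258095 for CCI-ION (-0.91, limma, adjusted p = 0.0597). By contrast, miR-129-5p was higher in every CCI-ION library (0.45, limma, adjusted p = 0.0762), and miR-129-2-3p overlapped between groups (0.27).

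The immune miRNAs spanned a wide range of levels. Together they made up 0.208% to 0.236% of the reads of all listed miRNAs in sham libraries and 0.220% to 0.291% in CCI-ION libraries. Of the reads of the immune miRNAs, miR-21-5p, miR-146a-5p and miR-146b-5p alone supplied between 87.8% and 92.6%. miR-150-5p and miR-150-3p are left out of the order that follows, as their length was not at hand. miR-150-5p had a mean of 2251 normalized counts over the 6 libraries, between 7119 for miR-146a-5p and 286 for miR-155-5p. The 7 miRNAs with a length had the same order in mean normalized counts without division by length. Normalized counts per base of mature sequence, averaged over the 6 libraries, were 390.2 for miR-146b-5p, 340.2 for miR-21-5p and 324 for miR-146a-5p. These leading miRNAs had overlapping ranges, so that their order is within the spread between libraries. Among the 7 miRNAs with a length, miR-155-5p followed at 12.4 per base, below every value of the 3 leading miRNAs and above every value of the next, miR-142-5p at 4.23. miR-142-5p, miR-223-3p at 3.17 and miR-142-3p at 1.32 per base overlapped with their neighbours in the order.

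**Figure D1:**
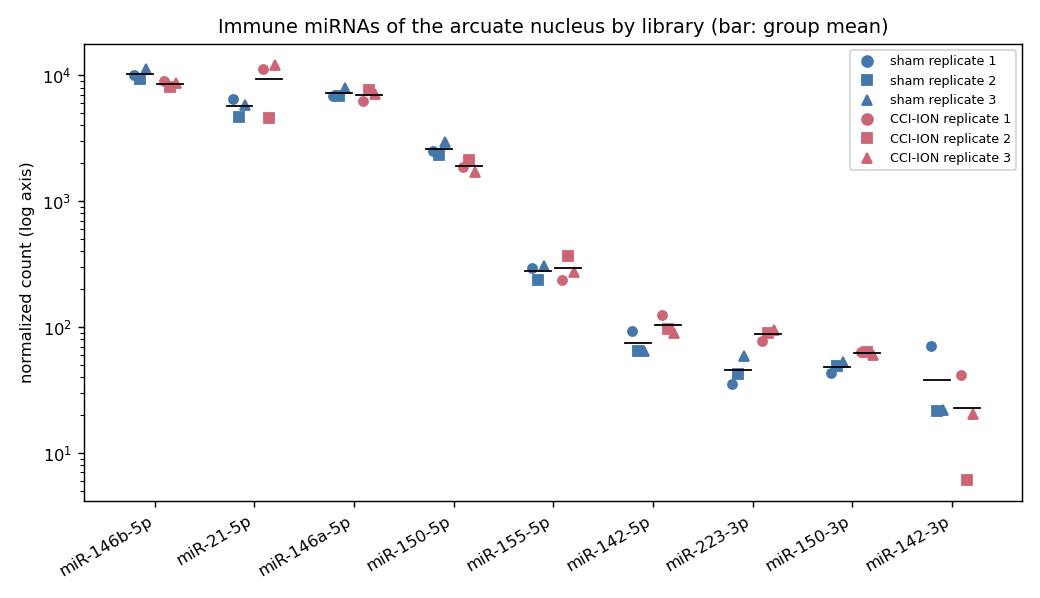
Normalized count (log axis) of each of the 9 immune miRNAs in the 3 sham libraries (blue) and the 3 CCI-ION libraries (red), with a symbol for each replicate and a bar at the group mean. The groups do not overlap for miR-146b-5p, miR-150-5p, miR-150-3p and miR-223-3p, and miR-21-5p has 2 CCI-ION libraries above and 1 below all sham libraries.

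None of the 9 immune miRNAs passed the threshold between sham and CCI-ION rats: limma called 0 higher and 0 lower, against 3.42% of all miRNAs tested in each direction and 6.85% in either, and 3 of the 9 had an unadjusted p under 0.05, against 33% of all. The fold changes were mixed, 5 positive and 4 negative on the log2 scale, with a median of 0.06 beside -0.01 for all miRNAs tested. The groups did not overlap for 4 of the 9, with CCI-ION higher in 2 and lower in 2, against 40.7% of all miRNAs tested (19.5% with CCI-ION higher and 21.3% lower). With 9 miRNAs, these counts were not far from the shares of all miRNAs tested. The values of the single miRNAs follow by role.

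**Figure D2:**
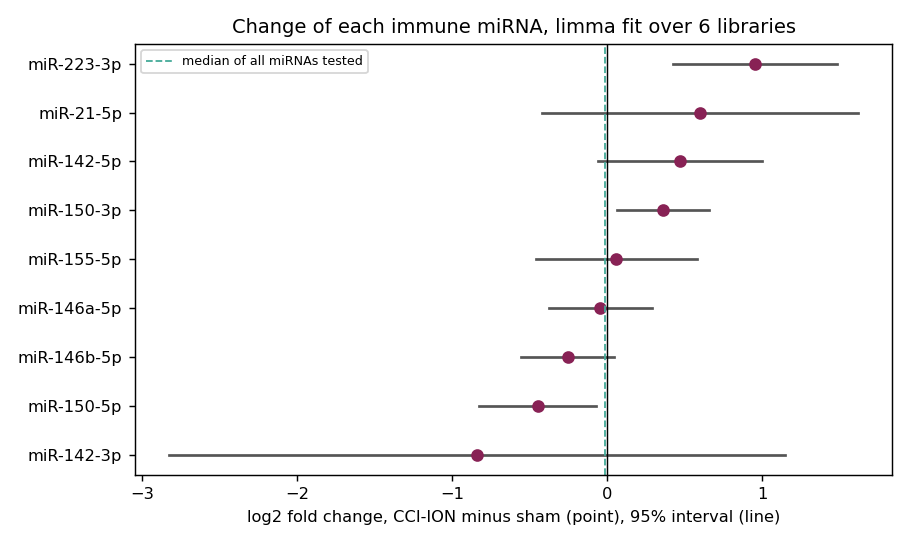
Log2 fold change of CCI-ION against sham rats (points) with its 95% interval from limma (lines) for the 9 immune miRNAs. Estimates run from -0.84 for miR-142-3p to 0.95 for miR-223-3p, and the dashed line marks the median of all miRNAs tested, -0.01.

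The myeloid miRNA miR-223-3p came nearest to the threshold. The sham libraries held 35.4, 42.4 and 59.0 normalized counts (31, 51 and 70 reads). The CCI-ION libraries held 78.2, 90.1 and 94.7 (84, 74 and 88 reads). All CCI-ION libraries were higher than all sham libraries, and the group means were 45.6 ± 12.1 for sham and 87.7 ± 8.55 for CCI-ION (SD, n = 3 each), which makes a ratio of 1.92. The log2 fold change was 0.95 (standard error 0.21, 95% interval 0.42 to 1.49, limma, adjusted p = 0.0597), and it stood at 44 of 555 in the order of p. Of the 9 miRNAs it had the smallest adjusted p. The exact permutation test, two-sided, gave 0.1, the smallest value that 3 libraries against 3 allow. miR-223-3p did pass in the limma fits with total-count scaling (log2 fold change 1.15, adjusted p = 0.0387), with library sizes without miR-7a-5p (1.01, adjusted p = 0.0472), and with a mean of at least 10 (0.95, adjusted p = 0.0342). It also passed with an intensity trend chosen after seeing the data (adjusted p = 0.0314). It did not pass with upper-quartile scaling (0.71, limma, adjusted p = 0.0737), nor in any fit without a library (0.79 to 1.15). The limma fits without a filter (adjusted p = 0.0619) and with 0.1 in place of 1 added to the counts (adjusted p = 0.0647) did not call it either. Nor did the limma fit with the replicate number as a block (adjusted p = 0.0981).

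Values of other cell types moved in the same libraries as miR-223-3p. The 6 vessel wall and endothelium miRNAs summed to 80930.4 to 106733 normalized counts in sham libraries and 152272 to 166198 in CCI-ION libraries, with none at 0 in any library, and 2 of the 6, miR-143-3p and miR-145-5p (log2 fold change 0.85, limma, adjusted p = 0.0450), were past the threshold and higher, beside 6.85% of all miRNAs tested. The list did not move as a whole, since miR-126a-5p was lower in every CCI-ION library (log2 fold change -0.91, limma, adjusted p = 0.205), miR-126a-3p was higher in every one (0.44, limma, adjusted p = 0.0877), and miR-143-5p and miR-145-3p overlapped between groups (0.69 and 0.12). miR-143-3p of smooth muscle and pericytes, with means of 40277 ± 7825 for sham and 86139.7 ± 7981 for CCI-ION (SD, n = 3 each) and a log2 fold change of 1.11 (limma, adjusted p = 0.0334), was one of the 2 miRNAs whose pattern over the libraries was most like that of miR-223-3p, the other being miR-322-3p. Likeness was taken as the root mean square difference of centred log2 values over the 6 libraries, which was 0.11 for miR-143-3p and 0.10 for miR-322-3p, against a median of 0.58 over the 488 miRNAs compared. The red blood cell miRNA miR-451-5p was also higher in every CCI-ION library, at 137.4 to 242 normalized counts in sham and 366 to 473 in CCI-ION libraries (log2 fold change 1.07, limma, adjusted p = 0.0649). The 3 red blood cell miRNAs summed to 2837 to 3798 in sham and 2898 to 3660.3 in CCI-ION libraries, which overlap, and miR-144-5p of that list was at 0 in some libraries. The 3 fibroblast and meninges miRNAs summed to 5723 to 6368 in sham and 6468 to 10815 in CCI-ION libraries, none at 0. Of the 3, miR-199a-5p was past the threshold and higher (log2 fold change 1.66, limma, adjusted p = 0.0190), beside 6.85% of all miRNAs tested. miR-199a-3p, the most abundant of them, overlapped between groups (0.26, limma, adjusted p = 0.460). miR-214-3p was higher in every CCI-ION library (1.25, limma, adjusted p = 0.0649). The part of vessel, blood or meningeal cells in the values of miR-223-3p was not tested.

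miR-142, the other hairpin of blood-forming cells, gave no such picture. For miR-142-5p the sham libraries held 93.7, 64.9 and 64.9 normalized counts and the CCI-ION libraries 124, 96.2 and 89.4. CCI-ION replicate 3 lay below sham replicate 1, so that the groups overlapped. The mean went from 74.5 ± 16.7 to 103 ± 18.2 (SD, n = 3 each), with a log2 fold change of 0.47 (standard error 0.21, 95% interval -0.06 to 1.00, limma, adjusted p = 0.180).

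The 3p strand of the same hairpin, miR-142-3p, had the lowest level per base of the 7 with a length and the widest spread of log2 values over the 6 libraries. The sham libraries held 70.9, 21.6 and 21.9 normalized counts and the CCI-ION libraries 41.9, 6.09 and 20.5. In both groups replicate 1 was the highest. CCI-ION replicate 2 rested on 5 reads, for which the exact Poisson interval is 1.62 to 11.7 reads (95%, counting error only), and that is the lowest number of reads above 0 in any library. Its log2 fold change of -0.84 (standard error 0.80, 95% interval -2.82 to 1.15) was within the spread between libraries, with an adjusted p of 0.482 from limma. Without CCI-ION replicate 2 it was -0.14, and without CCI-ION replicate 1 it was -1.44.

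The miRNAs most like miR-142-3p over the 6 libraries were miR-376c-3p and miR-153-3p, with root mean square differences of 0.33 and 0.36, and those most like miR-142-5p were miR-452-5p and miR-140-5p, with 0.14 each. Neither strand of the hairpin was among the 2 closest miRNAs of the other.

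miR-150 differed between its strands. Of miR-150-5p, the main strand, the sham libraries held 2499, 2342 and 2951 normalized counts and the CCI-ION libraries 1879, 2141 and 1691. All CCI-ION libraries were lower than all sham libraries, and the mean went from 2597 ± 316 to 1904 ± 226 (SD, n = 3 each). Its log2 fold change was -0.45 (standard error 0.15, 95% interval -0.82 to -0.07), which did not pass (limma, adjusted p = 0.113). With upper-quartile scaling it was -0.69 and passed (limma, adjusted p = 0.0319), and with total-count scaling it was -0.25 (limma, adjusted p = 0.285).

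The minor strand miR-150-3p went the other way, and the sham libraries held 43.4, 49.1 and 53.1 normalized counts against 63.3, 63.3 and 60.3 for CCI-ION. Every CCI-ION library was above every sham library, on 38 to 68 reads. Group means were 48.5 ± 4.86 for sham and 62.3 ± 1.74 for CCI-ION (SD, n = 3 each), with a log2 fold change of 0.36 (standard error 0.12, 95% interval 0.06 to 0.65, limma, adjusted p = 0.111). With upper-quartile scaling it was 0.12 (limma, adjusted p = 0.544), and with total-count scaling it was 0.56 (limma, adjusted p = 0.0642). Nearest to miR-150-5p in pattern were miR-485-5p and miR-664-3p, at 0.07 and 0.08, and nearest to miR-150-3p were miR-344b-1-3p and miR-30c-1-3p, at 0.05 each.

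The ratio of the 5p to the 3p strand of a hairpin compares both in the same library, where the scaling of that library cancels. Ratios given in times below are of the counts themselves. The log2 ratio was taken after adding 1 to each normalized count, so it can shift slightly with scaling where a strand is scarce. It was compared with limma for 158 hairpins with both strands at a mean of at least 10, of which 30 (19%) passed the threshold, 16 with a lower and 14 with a higher ratio in CCI-ION rats, while an unadjusted p under 0.05 was reached by 38%. Of the immune hairpins, miR-142, miR-146b, miR-150 and miR-223 could be compared, and 2 of these 4, miR-150 and miR-223, passed.

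miR-150-5p exceeded miR-150-3p by 57.6, 47.7 and 55.6 times in the sham libraries and by 29.7, 33.8 and 28.1 times in the CCI-ION libraries. The ratio was lower in all 3 CCI-ION libraries than in any sham library. On the log2 scale its mean fell from 5.71 to 4.91, a difference of -0.81 (standard error 0.14, 95% interval -1.15 to -0.46, limma over 158 hairpins, adjusted p = 0.0187). Counting error of a library's log2 ratio was 0.18 to 0.24, and the SD between libraries was 0.14 in each group.

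In miR-223 the 3p strand is the main one, and it exceeded miR-223-5p by 2.82, 3.64 and 4.12 times in the sham libraries and by 7, 7.4 and 5.87 times in the CCI-ION libraries. All CCI-ION libraries were again apart from all sham libraries. The log2 ratio of 5p to 3p had means of -1.72 in sham and -2.66 in CCI-ION rats, a difference of -0.93 (standard error 0.18, 95% interval -1.38 to -0.48, limma over 158 hairpins, adjusted p = 0.0228). miR-223-5p itself was at 12.6, 11.6 and 14.3 normalized counts for sham and 11.2, 12.2 and 16.1 for CCI-ION, which overlap (log2 fold change 0.02, limma, adjusted p = 0.941). These values rest on 10 to 17 reads, and the counting error of a library's log2 ratio was 0.39 to 0.51, more than the SD of 0.28 between sham libraries and 0.16 between CCI-ION libraries.

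The direction of both ratios held without any of the libraries, whereas the calls did not. Without sham replicate 1, 2 or 3 or CCI-ION replicate 1 neither ratio passed, with adjusted p from 0.0507 to 0.0850 (limma), and without CCI-ION replicate 2 or 3 both passed. For both ratios the exact permutation test, two-sided, gave 0.1, the smallest possible. With the replicate number as a block neither passed (limma, adjusted p = 0.0581 for both).

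The other hairpins did not pass. The log2 ratio of miR-142 was 0.40, 1.54 and 1.52 for sham and 1.54, 3.78 and 2.07 for CCI-ION, where the highest value is that of the library with 5 reads of miR-142-3p (difference 1.31, standard error 0.64, limma, adjusted p = 0.192). That of miR-146b had means of 6.81 and 6.65 (difference -0.16, 95% interval -0.51 to 0.19, limma, adjusted p = 0.446).

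**Figure D3:**
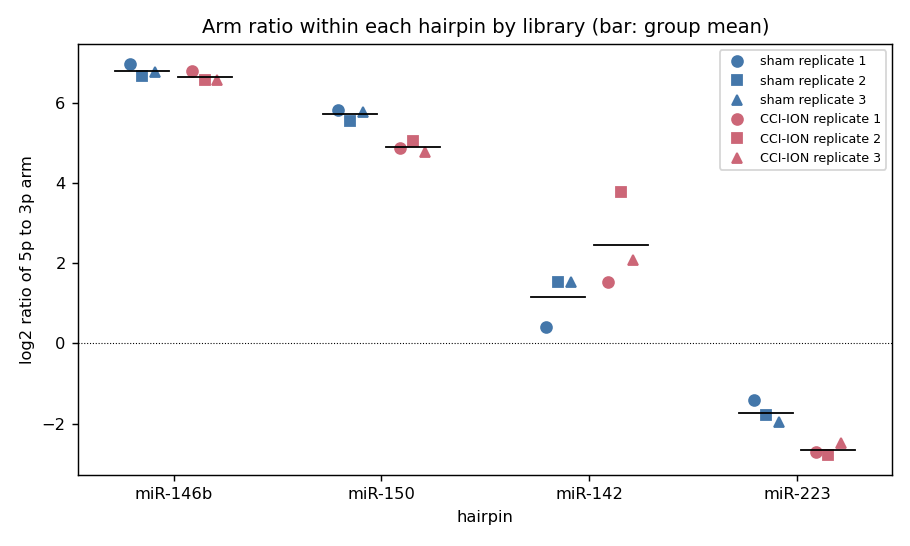
Ratio of 5p to 3p strand (log2) in each library for 4 immune hairpins, with sham libraries in blue, CCI-ION libraries in red, a symbol for each replicate and a bar at the group mean. For miR-150 and miR-223 the 3 CCI-ION libraries lie below the 3 sham libraries, and for miR-142 and miR-146b the groups overlap.

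miR-21-5p, one of the abundant miRNAs of the set, had a library that went against its group. The sham libraries held 6546, 4689 and 5799.9 normalized counts, and the CCI-ION libraries held 11146, 4578 and 12145, on 3760 to 11980 reads per library. Relative to the sham mean these CCI-ION values were 1.96, 0.81 and 2.14, so that replicates 1 and 3 were above and replicate 2 below every sham library. The exact Poisson intervals of the counts (95%) were 10948 to 11348 and 11922 to 12371 for CCI-ION replicates 1 and 3, whereas that of CCI-ION replicate 2, 4433 to 4727, overlapped that of sham replicate 2, 4568 to 4813. Group means were 5678 ± 935 for sham and 9290.0 ± 4111 for CCI-ION (SD, n = 3 each), and the log2 fold change of 0.60 (standard error 0.41, 95% interval -0.42 to 1.62) did not pass (limma, adjusted p = 0.334). Without CCI-ION replicate 2 it was 1.05 and passed (limma, adjusted p = 0.0442), while leaving out any of the remaining 5 libraries gave 0.34 to 0.71 and no call.

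miR-21-5p was not alone in this order of the libraries. In a count made after its values were seen, 41 of the 555 miRNAs tested had CCI-ION replicates 1 and 3 above all sham libraries and CCI-ION replicate 2 not above them, and in 14 of the 41, miR-21-5p included, replicate 2 was below all sham libraries. The same count with replicate 1 or replicate 3 as the library left behind gave 36 and 16. Most like miR-21-5p over the libraries were miR-489-5p, at 45.7, 31.6 and 30.3 normalized counts for sham and 78.2, 32.9 and 77.5 for CCI-ION, and miR-30e-5p, at 5826, 5107 and 5676 for sham and 13234, 5917 and 13495 for CCI-ION. Their root mean square differences from miR-21-5p were 0.15 and 0.18, against a median of 0.63.

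**Figure D4:**
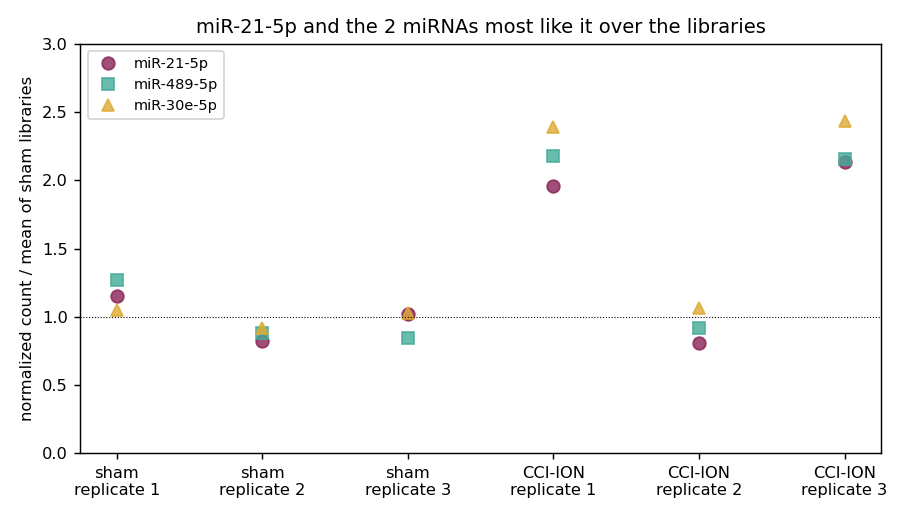
Normalized count of miR-21-5p, miR-489-5p and miR-30e-5p in each library, divided by the mean of the 3 sham libraries of that miRNA (dotted line at 1). CCI-ION replicates 1 and 3 are near or above 2 for all 3 miRNAs, and CCI-ION replicate 2 is near 1, with miR-21-5p at 0.81.

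The NF-κB-linked pair had the smallest spread of log2 values over the 6 libraries. For miR-146a-5p the sham libraries held 6849, 6836 and 7975 normalized counts and the CCI-ION libraries 6303, 7700.4 and 7048. The groups overlapped, and the log2 fold change was -0.04 (standard error 0.13, 95% interval -0.37 to 0.29, limma, adjusted p = 0.847), with a sign that flipped to 0.16 under total-count scaling and to 0.010 without miR-7a-5p in the library sizes.

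For miR-146b-5p the sham libraries held 10093, 9304 and 11199 normalized counts and the CCI-ION libraries 8945, 8018 and 8630.4. Every CCI-ION library was below every sham library, and the mean went from 10198 ± 951 to 8531 ± 471 (SD, n = 3 each). The log2 fold change of -0.25 (standard error 0.12, 95% interval -0.56 to 0.05) did not pass (limma, adjusted p = 0.200), and it ranged from -0.50 with upper-quartile scaling to -0.05 with total-count scaling.

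The ratio of miR-146a-5p to miR-146b-5p, which scaling can hardly move at these counts, was 0.679, 0.735 and 0.712 for sham and 0.705, 0.960 and 0.817 for CCI-ION. CCI-ION replicate 1 lay within the sham range, and CCI-ION replicates 2 and 3 lay above it. The difference was 0.21 on the log2 scale (two-sided exact permutation test, p = 0.3). The smallest p that this test allows with 3 libraries against 3 is 0.1, so it could not pass 0.05. The other strands were scarce. miR-146a-3p was listed at 0 in 4 of the 6 libraries and at 6.74 and 6.51 normalized counts in sham replicate 3 and CCI-ION replicate 1, and miR-146b-3p had 78.9 to 102 in sham and 80.0 to 89.4 in CCI-ION libraries (log2 fold change -0.09, limma, adjusted p = 0.646). Over the libraries miR-146a-5p was most like miR-26a-5p and let-7b-3p, at 0.07 and 0.08, and miR-146b-5p most like miR-3085 and miR-185-5p, at 0.08 each.

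miR-155-5p, the inducible miRNA of activated macrophages, microglia and lymphocytes, was at 293, 236 and 308 normalized counts for sham and 238, 369 and 275 for CCI-ION. The lowest 2 values were 1 sham and 1 CCI-ION library, and the groups overlapped, with CCI-ION replicate 2 above every sham library. The log2 fold change was 0.06 (standard error 0.21, 95% interval -0.46 to 0.58, limma, adjusted p = 0.859), and it flipped to -0.19 with upper-quartile scaling. It also flipped to -0.11 without CCI-ION replicate 2 and to -0.05 without sham replicate 2. The interval spans changes in either direction, and the partner strand miR-155-3p was not in these tables. Its closest miRNAs were miR-501-3p and miR-673-5p, at 0.09 and 0.10.

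**Figure D5:**
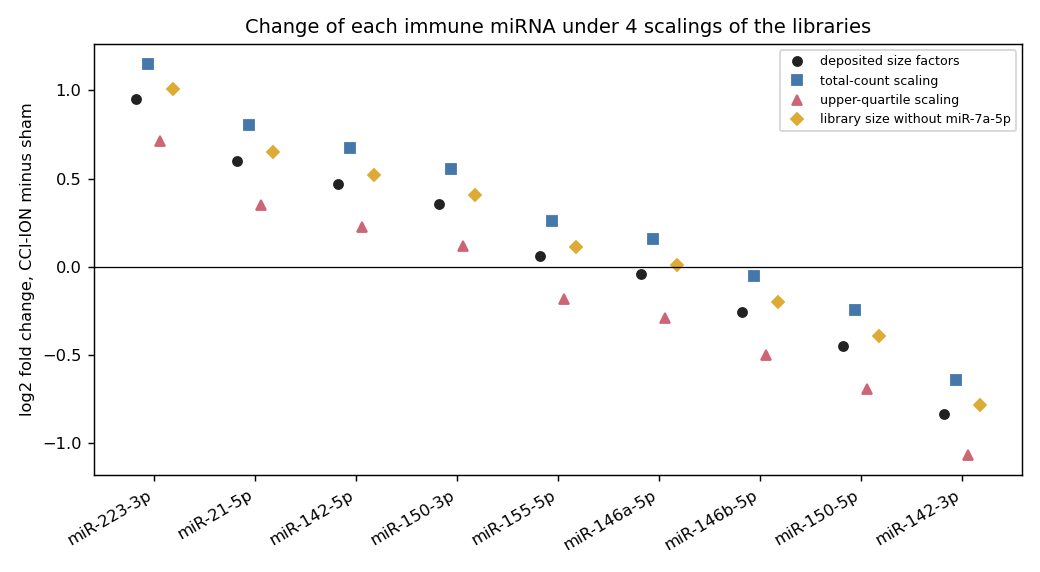
Log2 fold change of CCI-ION against sham rats for the 9 immune miRNAs with the deposited size factors and under 3 other scalings of the libraries. All points of a library scaling shift together, so that miR-146a-5p and miR-155-5p lie on either side of 0, while the other 7 keep their sign under these scalings.

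Among 23 other miRNAs linked to inflammation, all of them tested, 3 passed the threshold, of which 1 was higher and 2 were lower with CCI-ION. An unadjusted p under 0.05 was found for 11 of them, beside 6.85% and 33% of all miRNAs tested. Their median log2 fold change was -0.06. miR-27a-3p, a miRNA of macrophage and lipid regulation, rose from 5798, 5589 and 5690.3 normalized counts for sham to 9248, 10183 and 14413 for CCI-ION (log2 fold change 0.96, standard error 0.19, limma, adjusted p = 0.0450). miR-221-3p, which is known in vascular and immune cells, fell from 18365, 19429 and 18953 to 10735, 11636 and 10145 (log2 fold change -0.81, standard error 0.11, limma, adjusted p = 0.0208). miR-124-3p, known above all as a neuronal miRNA and also for holding microglia in a quiescent state, fell from 58265, 71267 and 71422 to 43263, 36815 and 36746 (log2 fold change -0.78, standard error 0.14, limma, adjusted p = 0.0435). For each of these 3 the groups did not overlap. In every fit that left out 1 sham library, or CCI-ION replicate 1 or 3, 0 of the 23 passed in limma. Markers of other cells moved in the same libraries. The 4 oligodendrocyte miRNAs summed to 13685 to 19928 normalized counts in sham and 10471 to 11304 in CCI-ION libraries, with miR-338-3p past the threshold and lower and miR-219a-5p at 0 in some libraries, and the part of this in the values of the immune miRNAs was not tested. The 5 pituitary and neuroendocrine miRNAs summed to 2.12e+06 to 3.41e+06 normalized counts in sham and 9.56e+05 to 1.56e+06 in CCI-ION libraries. This list did not move as a whole. miR-7a-5p and miR-7b were lower in every CCI-ION library (log2 fold change -1.04 and -0.87), and miR-375-3p was higher in every one (0.58). miR-200b-3p and miR-429 overlapped between groups (0.89 and 0.73). The 5 choroid plexus and ependyma miRNAs summed to 65992.5 to 90236.8 and 85001.3 to 108839, which overlap. Both lists had 0 past the threshold in limma, with 3 and 1 at an unadjusted p under 0.05.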

How the data were processed

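Per the labels, total RNA of ARC tissue was extracted with Trizol, and the submitters' processing notes name cutadapt 1.14, Bowtie 1.1.1 and build rn6; the counting, miRNA annotation and normalization are not given in the sources used here. The deposited signal values are, from the values themselves, read counts that the authors divided by a size factor: all values were whole multiples of 1 step per library (tolerance 0.001 steps), and the steps were the inverse of median-of-ratios factors over 485 miRNAs. Reads in the text are these multiples, recovered from normalized values, and no value lay between 0 and 5 reads. Depth, summed over the listed miRNAs, was 8628309 to 14313839 reads, and intervals on reads cover counting error only.

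Groups came from the labels. limma 3.58.1 (R 4.3.3) was fitted to log2(normalized count + 1) keeping miRNAs whose mean reached 1, two-sided, with Benjamini-Hochberg adjustment over all miRNAs tested and a threshold of 0.05, and to log2 ratios of 5p to 3p strands. A fold change on this scale is understated for miRNAs with few reads. The fits were tested on simulated data with a single amount of spread between libraries for all miRNAs, and another for all ratios. Spreads as wide as those of miR-21-5p, miR-142-3p and the miR-142 ratio were not simulated. Single ratios used exact permutation tests. All listed immune miRNAs and their partner strands were named; of other lists, those past the threshold; and for each immune miRNA the 2 with the most similar pattern among those with a mean of at least 10. The immune miRNAs and all lists were chosen with earlier results of these data known. Sequences, their coordinates and neighbouring genes are those of RefSeq GRCr8, in which 512 of the 562 names were found; the files carry no coordinates. The replicate numbers were not taken to pair libraries, since the correlations of their deviations were -0.03, 0.19 and -0.01. Replicate libraries were not duplicates of each other: their reads differed beyond sampling noise.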

Additional observations from a re-analysis of the deposited data

How the results depend on the processing

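The 9 immune miRNAs gave 126 log2 fold changes over the alternatives, of which 113 kept their direction and side of the threshold, 6 newly passed and 7 changed sign; the signs were those of miR-146a-5p, 0.16 with total counts and 0.010 with library sizes without miR-7a-5p, and -0.11 to 0.033 without a library, and of miR-155-5p, -0.19 with upper quartiles and -0.11 to 0.20 without a library. The number of immune miRNAs past the threshold was 0 in the test reported and 1 with total counts, upper quartiles, library sizes without miR-7a-5p, the minimum mean of 10 and the intensity trend (the trend chosen after seeing the data), and 0 to 1 without a library; the 1 was miR-150-5p with upper quartiles, miR-21-5p without CCI-ION replicate 2 and otherwise miR-223-3p. Of all miRNAs, 38 passed in the test reported, 94 with upper quartiles, 63 with a mean of at least 10, 88 with the intensity trend, and 7 to 42 without a library; higher and lower in CCI-ION rats were 32 and 31 with the minimum mean of 10, 44 and 44 with the trend, 42 and 9 with total counts, 10 and 84 with upper quartiles, 30 and 19 without miR-7a-5p in library sizes, and 3 to 22 and 4 to 20 without a library. Of the 23 other inflammation-linked miRNAs 3 passed in the test reported, 7 with upper quartiles, 5 with the minimum mean of 10, 8 with the trend and 0 to 2 without a library. The median log2 fold change of the immune miRNAs was -0.19 to 0.26 over all alternatives and -0.11 to 0.20 without a library, beside medians of all miRNAs that moved between -0.26 and 0.17 with the scaling.

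With the replicate block 3 miRNAs passed, 1 higher and 2 lower, 0 of them immune and 0 inflammation-linked; 16 hairpins passed by arm ratio, against 30 in the test reported and 1 to 40 without a library, and 0 of the 4 immune hairpins passed by arm ratio (adjusted p = 0.0581 for miR-150 and miR-223 from limma), against 2 in the test reported and 0 to 2 without a library. The ratio of miR-146a-5p to miR-146b-5p differed by 0.10 to 0.32 on the log2 scale without a library. Its exact permutation test cannot reach 0.05 with this few libraries, so no call was possible. edgeR and DESeq2, listed among the alternatives, were not run, because the deposited values are normalized and the reads were only recovered from them, with none between 0 and 5. Apart from fits with fewer libraries or miRNAs, the cause was not tested. Each fit without a library rests on 5, and depth limits miR-146a-3p, at 0 to 8 reads, and then miR-142-3p and miR-223-5p.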
